A study of Drosophila melanogaster with 9 samples.

Results

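The genes described here encode 9 abundant secreted proteins that insects are known to make mainly in the fat body. They are the yolk protein genes Yp1 (FBgn0004045), Yp2 (FBgn0005391) and Yp3 (FBgn0004047), the larval serum protein genes Lsp1alpha (FBgn0002562), Lsp1beta (FBgn0002563), Lsp1gamma (FBgn0002564) and Lsp2 (FBgn0002565), and the odorant-binding protein genes Obp99a (FBgn0039678) and Obp99b (FBgn0039685). They were chosen by name, with earlier results of these data known, as 9 of the 17611 genes in the deposited count table. All 9 carry an extracellular annotation in that table. The measurements are RNA-sequencing counts from Malpighian tubules, the renal organ of Drosophila melanogaster, in 9 libraries from 3 groups of 3. The control genotype was esg-Gal4 with tub-Gal80ts and UAS-GFP. Flies of the yki3SA group carried these and UAS-Yki-3SA, the transgene of a Yorkie protein made active by mutation, which drives growth and gives gut tumours. The ITP-i flies carried all of these and UAS-ITP-i, an RNA interference transgene against ITP, the gene of the ion transport peptide hormone.

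All groups therefore shared the esg driver, which is active in progenitor cells of gut and tubule, the temperature-sensitive Gal80 repressor and the GFP transgene. Virgin flies were held at 18 °C for 6 to 8 days and moved to 29 °C for 8 days to switch the transgenes on, and RNA came from 80 tubules per genotype. The labels call the flies virgin and do not give their sex. No group carried a neutral RNA interference transgene. Titles of the control and yki3SA samples carry a re-analysis mark that ITP-i titles lack, and a difference of processing or time cannot be told apart from the ITP-i genotype. The labels do not say that libraries of a group came from separate cultures or dissections, so p-values measure the spread between these libraries.

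Yolk proteins are lipase-related proteins that the female fat body secretes into the hemolymph and that follicle cells of the ovary also make, and growing oocytes take them up. Larval serum proteins are hexamerins, storage proteins related to phenoloxidases, which the larval fat body secretes before metamorphosis as a store of amino acids. Odorant-binding proteins are small secreted carriers of hydrophobic ligands, and several are made outside the chemosensory organs, the fat body included.

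The libraries held between 34640437 and 49338340 counts. Markers of tubule principal cells summed to between 16870 and 30160 CPM (counts scaled to the same total in each library) and markers of stellate cells to between 980 and 1470 CPM, so the labelled tissue was present in every library. ITP itself was at 37.0 ± 6.70 CPM (SD, n = 3) in the control libraries, with yki3SA at 68.3 ± 10.4 CPM and ITP-i at 58.6 ± 6.20 CPM. The rise in yki3SA against control passed the test (log2 fold change 0.89, adjusted p = 0.003). ITP in ITP-i against yki3SA did not pass the test (log2 -0.22, adjusted p = 0.35), so its level in whole tubules does not check the ITP-i label, and ITP-i stands below for the libraries so labelled.

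In tubules of tumour flies, transcripts of all 3 yolk protein genes, Lsp1beta and Obp99a fell, by 15.2-fold (Yp1) to 88.4-fold (Obp99a) between the group means. In tubules of ITP-i flies these 5 genes were higher than in yki3SA, by 9.55-fold (Yp3) to 31.8-fold (Obp99a). The call of Lsp1beta in that comparison was not made in every alternative fit. Lsp1gamma moved the other way in both comparisons, although limma-voom called neither difference. Obp99b was called lower in ITP-i than in either of the other groups, on 13 counts in the ITP-i libraries together. Neither call of Obp99b was made in every alternative fit. Lsp1alpha and Lsp2 were represented by few counts, and with edgeR no difference in them passed the test, although limma-voom called Lsp2 lower in yki3SA than in both other groups.

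Of the 9 genes, 5 were called lower and 1 higher in yki3SA against control, at an adjusted p under 0.05, beside 14% of the 10253 tested genes called lower and 16.2% called higher (30.1% in all). In ITP-i against yki3SA, 5 were called higher and 2 lower, beside 10.6% and 10.1% of all tested genes (20.7% in all). In ITP-i against control, 2 were called lower, beside 4.14% of all tested genes (10.5% in both directions). With edgeR 0 of the 9 were called higher, beside 6.37% of all, and 0 were higher at an unadjusted p under 0.05, with DESeq2 or with limma-voom. The median log2 fold change of the 9 genes in these comparisons was -3.93, 3.26 and -0.66, and that of all tested genes 0.07, -0.04 and 0.00. The 9 genes were chosen with earlier results of these data known, so the counts beside these shares are a description and no test of the set. The comparisons share libraries, since the same yki3SA libraries stand in the first and the second, so a call in both is not independent. All 9 genes passed the filter on low counts, but Lsp2 in yki3SA, and Lsp1alpha and Obp99b in ITP-i, had a mean under the filter level of 0.244 CPM, the level that 10 counts give in a library of median size.

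**Figure D1:**
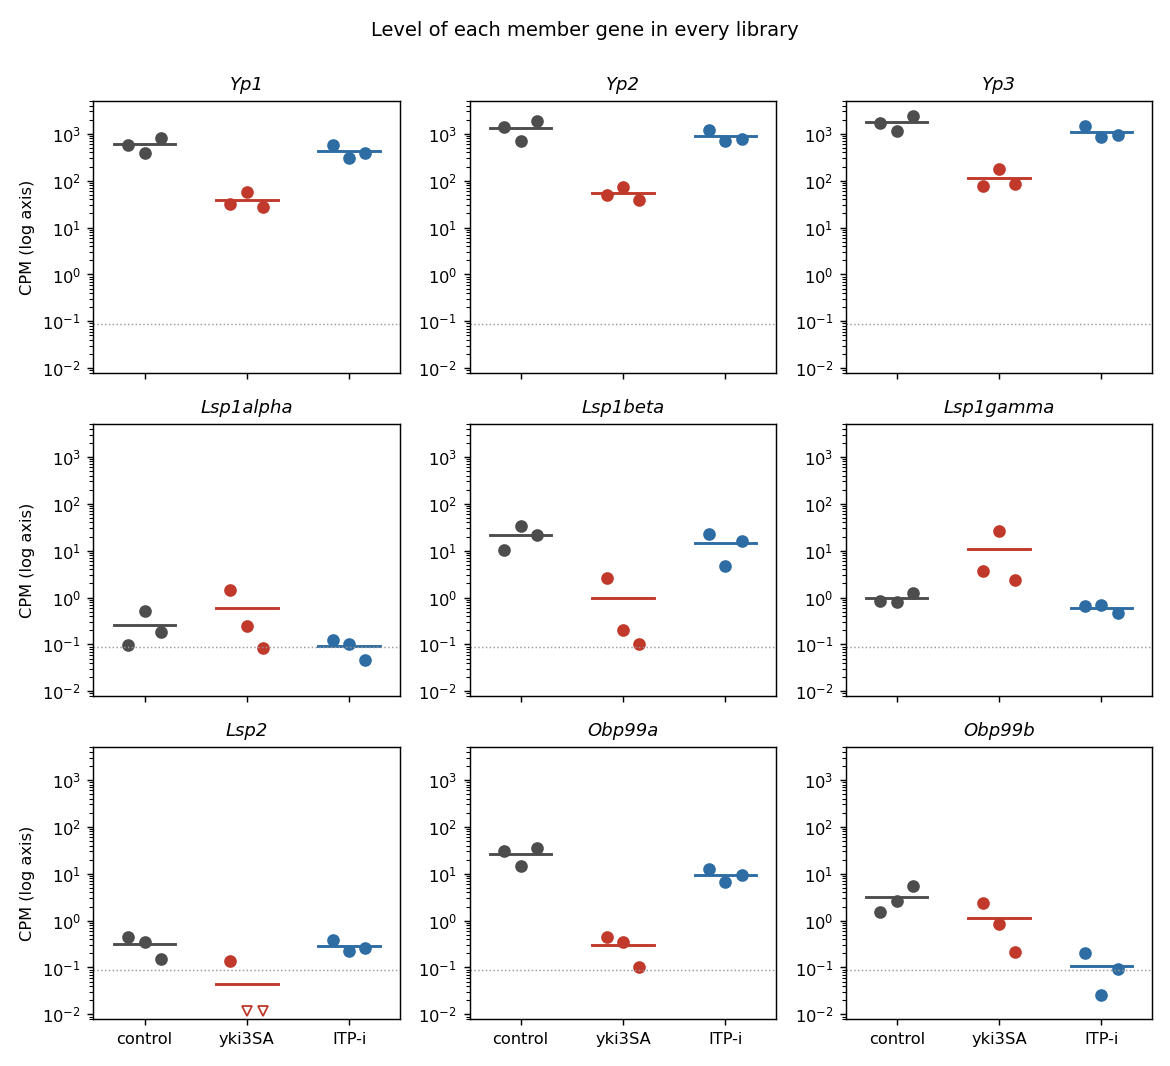
Level of each gene in CPM on a log axis in the 9 libraries. Filled points are libraries, in the order 1 to 3 within a group, horizontal lines are group means, the open triangles stand for 2 libraries with no count, and the dotted line is the level of 3 counts in the smallest library, 0.0866 CPM. Yp1, Yp2, Yp3, Lsp1beta and Obp99a are low in all 3 yki3SA libraries, Lsp1gamma is high there, and Obp99b is lowest in ITP-i.

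Yp1 and Yp2 are adjacent genes on the X chromosome that are transcribed away from each other, and Yp3 lies elsewhere on the X with Rtc1 and rdgB as neighbours (Ensembl release 115 annotation). Yp2 was at 1376, 697 and 1840 CPM in control libraries 1, 2 and 3, at 50.2, 71.9 and 38.4 CPM in yki3SA and at 1234, 687 and 780 CPM in ITP-i. Every yki3SA library lay far below every library of the other groups, and ITP-i overlapped control. The mean of Yp2 fell from 1304 ± 575 to 53.5 ± 17.0 CPM (SD, n = 3), a 24.4-fold difference of the means, with a fitted log2 fold change of -4.61 (SE 0.42, adjusted p = 5.7e-05). In ITP-i it was 16.8-fold above yki3SA (900 ± 293 CPM, log2 4.07, SE 0.41, adjusted p = 2.4e-04).

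Yp1, which the same hormonal and sex-specific signals are known to control, was at 572, 385 and 820 CPM in the control libraries, at 31.1, 58.1 and 27.5 CPM in the yki3SA libraries and at 576, 312 and 396 CPM in the ITP-i libraries. Its lowest control library was still several times its highest yki3SA library. It fell in yki3SA (log2 -3.93, SE 0.39, adjusted p = 9.9e-05) and was higher in ITP-i than in yki3SA (log2 3.46, SE 0.39, adjusted p = 4.2e-04). Yp3 was the most abundant of the 9 genes, at 1727, 1127 and 2416 CPM in the control libraries, 78.5, 174 and 85.2 CPM in the yki3SA libraries and 1457, 845 and 924 CPM in the ITP-i libraries. The order of the groups was the one seen for the other yolk protein genes. Yp3 fell 15.6-fold between the means of control and yki3SA (log2 -3.96, SE 0.41, adjusted p = 1.2e-04) and was 9.55-fold higher in ITP-i than in yki3SA (log2 3.26, SE 0.40, adjusted p = 6.9e-04).

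Between ITP-i and control, no difference in a yolk protein gene passed the test. The log2 fold change was -0.47 for Yp1 (95% interval -1.25 to 0.31, adjusted p = 0.48), -0.53 for Yp2 (-1.34 to 0.27, adjusted p = 0.43) and -0.71 for Yp3 (-1.52 to 0.10, adjusted p = 0.28). These intervals are wide, so equal levels are not shown. The calls of all 3 genes in the other comparisons were made in every alternative fit, with log2 values from -4.94 to -3.64 in yki3SA against control and from 2.97 to 4.36 in ITP-i against yki3SA.

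**Figure D2:**
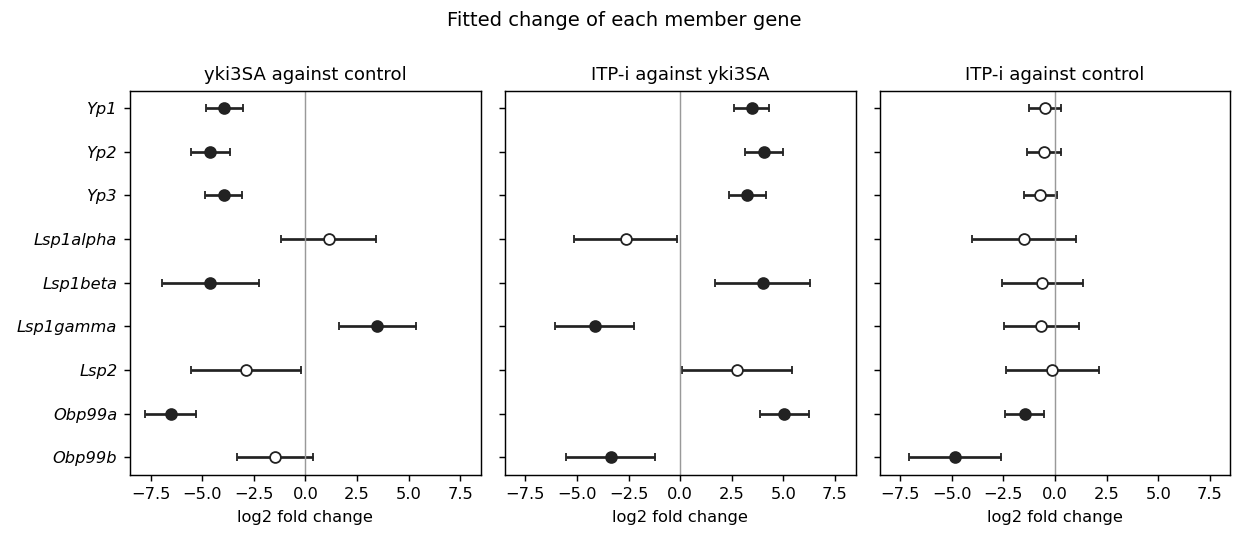
Fitted log2 fold change of each gene in the 3 comparisons, with 95% intervals that are not adjusted for the number of genes. Filled points had an adjusted p under 0.05. Yp1, Yp2, Yp3, Lsp1beta and Obp99a stand left of 0 in yki3SA against control and right of 0 in ITP-i against yki3SA, and Lsp1gamma stands on the opposite sides.

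The ratio of Yp2 to Yp1 was lowest in yki3SA. For each Yp1 count there were 2.41, 1.81 and 2.24 Yp2 counts in the control libraries, 1.61, 1.24 and 1.40 in the yki3SA libraries and 2.14, 2.20 and 1.97 in the ITP-i libraries. The yki3SA ratios lay below all ratios of the other groups, and control and ITP-i overlapped. Yp2 made up 35.1 ± 3.12% of the yolk protein gene counts in the control libraries, 26.8 ± 4.05% in the yki3SA libraries and 37.4 ± 0.332% in the ITP-i libraries. With 3 libraries against 3, the exact two-sided permutation test of such a ratio cannot go below p = 0.10, the value found here for yki3SA against each other group. Yp3 counts for each Yp1 count were 2.96 ± 0.0504, 2.87 ± 0.304 and 2.52 ± 0.186 in the control, yki3SA and ITP-i libraries, with control and yki3SA overlapping. In all, 23 such sums, shares and ratios were computed in 3 comparisons, and none could reach a p under 0.10.

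**Figure D3:**
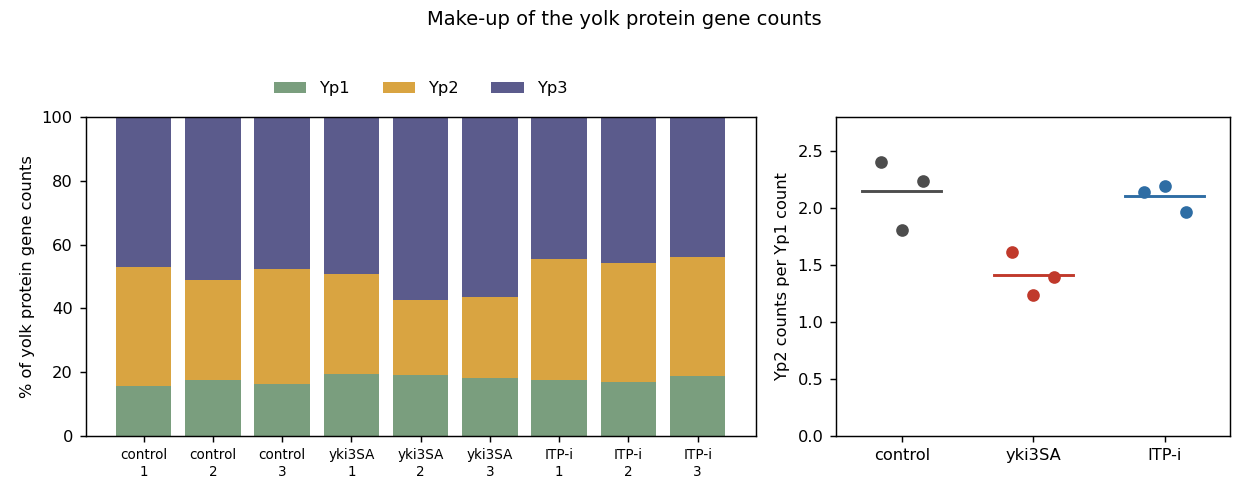
Left, share of Yp1, Yp2 and Yp3 in the yolk protein gene counts of each library, in percent. Right, Yp2 counts for each Yp1 count, with points for libraries and lines for group means. The 3 yki3SA libraries have the lowest ratios, 1.24 to 1.61, and the other 6 lie between 1.81 and 2.41.

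The larval serum protein genes divided. Lsp1beta, on chromosome arm 2L, encodes the beta subunit of larval serum protein 1 and was at 10.5, 33.5 and 21.9 CPM in the control libraries, at 2.56, 0.201 and 0.10 CPM in the yki3SA libraries and at 22.2, 4.72 and 16.2 CPM in the ITP-i libraries. The yki3SA libraries lay below all the others, and yki3SA library 1 was more than 10-fold above the remaining pair. Lsp1beta fell in yki3SA against control (log2 -4.60, SE 1.06, adjusted p = 0.0098) and was higher in ITP-i than in yki3SA (log2 3.99, SE 1.04, adjusted p = 0.024). Without yki3SA library 1 these values were -7.24 (adjusted p = 0.0013) and 6.62 (adjusted p = 0.0036). The second call ended without yki3SA library 2 (log2 3.52, adjusted p = 0.067) and without ITP-i library 1 (log2 3.52, adjusted p = 0.079). That call also ended with limma-voom, with a robust edgeR fit, and when both tumour libraries numbered 3 were left out. ITP-i against control gave a log2 of -0.61 (95% interval -2.58 to 1.36, adjusted p = 0.74).

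Lsp1gamma, the gamma subunit gene on arm 3L, was at 0.846, 0.805 and 1.24 CPM in the control libraries, at 3.71, 26.4 and 2.31 CPM in the yki3SA libraries and at 0.659, 0.689 and 0.471 CPM in the ITP-i libraries. All yki3SA libraries were above all others, with yki3SA library 2 far above the rest. Lsp1gamma rose in yki3SA against control (log2 3.49, SE 0.83, adjusted p = 0.011) and fell in ITP-i against yki3SA (log2 -4.15, SE 0.86, adjusted p = 0.0095). Without yki3SA library 2 these values were 1.62 (adjusted p = 0.025) and -2.29 (adjusted p = 0.011). With limma-voom neither passed (log2 2.60, adjusted p = 0.16, and log2 -3.24, adjusted p = 0.14). Lsp1beta counts for each Lsp1gamma count were 12.5, 41.6 and 17.8 in the control libraries, 0.691, 0.00763 and 0.0435 in the yki3SA libraries and 33.8, 6.85 and 34.5 in the ITP-i libraries, so the subunit with more counts was beta in every control and ITP-i library and gamma in every yki3SA library. The exact permutation p was 0.10 for yki3SA against either group, the smallest possible.

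Lsp1alpha, on the X chromosome, had 4, 19 and 6 counts in the control libraries, 53, 11 and 5 in the yki3SA libraries and 5, 4 and 2 in the ITP-i libraries. The groups overlapped, and 1 library, yki3SA library 1, held most of the yki3SA counts. The log2 fold change in yki3SA against control was 1.14 (SE 1.03, adjusted p = 0.44) and turned to -0.71 (adjusted p = 0.64) without that library. Lsp2, which encodes larval serum protein 2 and lies on arm 3L, had 18, 13 and 5 counts in the control libraries, 5, 0 and 0 in the yki3SA libraries and 15, 9 and 11 in the ITP-i libraries. In CPM the yki3SA libraries lay below all the others. With edgeR the differences of Lsp2 did not pass the test in yki3SA against control (log2 -2.90, SE 1.19, adjusted p = 0.095) or in ITP-i against yki3SA (log2 2.77, SE 1.19, adjusted p = 0.12). With limma-voom both passed (log2 -3.68, adjusted p = 0.034, and log2 3.61, adjusted p = 0.044). In edgeR both passed without yki3SA library 1 (log2 -6.77, adjusted p = 0.012, and log2 6.62, adjusted p = 0.019), where the remaining yki3SA libraries hold no Lsp2 count and the fitted values are no measure of size.

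Sequences of the alpha, beta and gamma subunits are related, as are those of the yolk proteins, and how reads shared between related genes were counted is not given in the sources used here. Yp1 and Lsp2 overlap antisense genes, and the strand setting of the counting is not given either. The antisense gene at Yp1 (asRNA:CR45601) had no count in any library, and that at Lsp2 (asRNA:CR11538) had 2 counts in yki3SA library 2 and no others.

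Obp99a and Obp99b lie on arm 3R, and neither is the other's neighbour. Obp99a was at 29.9, 14.3 and 34.9 CPM in the control libraries, at 0.436, 0.358 and 0.10 CPM in the yki3SA libraries and at 12.4, 6.79 and 9.23 CPM in the ITP-i libraries. The 3 groups did not overlap, with control highest and yki3SA close to the level of a few counts. The mean of Obp99a fell 88.4-fold in yki3SA (log2 -6.53, SE 0.55, adjusted p = 3.9e-05), the largest fall among the 9 genes. In ITP-i it was 31.8-fold above yki3SA (log2 5.05, SE 0.52, adjusted p = 3.0e-04) and 2.78-fold below control (log2 -1.48, SE 0.41, adjusted p = 0.049). The last call was at the edge of the threshold and ended in 10 of the 21 alternative fits, among them those without control library 1 (adjusted p = 0.13) or 3 (0.16), yki3SA library 1 (0.051) or 2 (0.057), or ITP-i library 1 (0.081), 2 (0.16) or 3 (0.11).

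Set against the yolk protein genes, Obp99a was also lowest in yki3SA. For each 100 yolk protein gene counts there were 0.812, 0.649 and 0.688 Obp99a counts in the control libraries, 0.273, 0.118 and 0.0664 in the yki3SA libraries and 0.379, 0.368 and 0.440 in the ITP-i libraries. No group overlapped another (exact permutation p = 0.10 for each pair, the smallest possible).

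Obp99b, described elsewhere as male-enriched in fat cells of the fly head, was at 1.49, 2.66 and 5.36 CPM in the control libraries, at 2.37, 0.850 and 0.218 CPM in the yki3SA libraries and at 0.203, 0.0255 and 0.0942 CPM in the ITP-i libraries. Control and yki3SA overlapped, and the ITP-i libraries, with 8, 1 and 4 counts, lay below all the others. Obp99b was lower in ITP-i than in control (log2 -4.84, SE 1.0, adjusted p = 0.013) and than in yki3SA (log2 -3.37, SE 0.97, adjusted p = 0.035), and yki3SA against control did not pass (log2 -1.48, SE 0.83, adjusted p = 0.21). The call against control ended without ITP-i library 2 (log2 -4.41, adjusted p = 0.054) and with limma-voom (log2 -4.81, adjusted p = 0.060). It was -5.64 without ITP-i library 1 and -4.25 without control library 3, both called. The call against yki3SA ended without yki3SA library 1 (log2 -2.26, adjusted p = 0.12) or 2 (-3.53, 0.057) and without ITP-i library 1 (-4.16, 0.062), 2 (-2.91, 0.11) or 3 (-3.28, 0.085). It also ended with limma-voom (log2 -2.78, adjusted p = 0.21). Obp99b had fewer counts than Obp99a in every control and ITP-i library (0.05, 0.185 and 0.154 counts for each Obp99a count in control) and more in every yki3SA library (5.44, 2.38 and 2.17).

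Per kilobase of coding length, the order of the levels in control was Yp3 (1394 ± 512 CPM per kb, SD, n = 3), Yp2 (984 ± 434), Yp1 (450 ± 166), Obp99a (61.9 ± 25.2), Lsp1beta (9.29 ± 4.84), Obp99b (7.09 ± 4.44), Lsp1gamma (0.415 ± 0.103), Lsp2 (0.15 ± 0.0719) and Lsp1alpha (0.108 ± 0.0887). Across libraries, the levels of neighbours in that order overlapped for Yp3 and Yp2, Yp2 and Yp1, Lsp1beta and Obp99b, and Lsp2 and Lsp1alpha. Within every library of all groups, however, Yp3 had more counts than Yp2, and Yp2 more than Yp1. In yki3SA the yolk protein genes still led, with Yp3 at 89.4 ± 42.3, Yp2 at 40.4 ± 12.8 and Yp1 at 29.6 ± 12.7 CPM per kb. Lsp1gamma came next there (4.66 ± 5.84), then Obp99b (2.57 ± 2.48), Obp99a (0.700 ± 0.413), Lsp1beta (0.404 ± 0.589), Lsp1alpha (0.242 ± 0.304) and Lsp2 (0.0216 ± 0.0374), and each of these overlapped the next. In ITP-i the first 5 places were those of control, from Yp3 (853 ± 264 CPM per kb) through Yp2 (679 ± 221), Yp1 (325 ± 102) and Obp99a (22.2 ± 6.59) to Lsp1beta (6.08 ± 3.76). Lsp1gamma (0.262 ± 0.0509), Obp99b (0.240 ± 0.200), Lsp2 (0.138 ± 0.0379) and Lsp1alpha (0.0376 ± 0.0166) followed. Of the neighbours in ITP-i, Yp3 and Yp2, Lsp1gamma and Obp99b, and Obp99b and Lsp2 overlapped.

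The 9 genes together took 0.327%, 0.215% and 0.473% of all counts in the control libraries, 0.0181%, 0.0363% and 0.0187% in the yki3SA libraries and 0.310%, 0.178% and 0.220% in the ITP-i libraries. The yolk protein genes made up 91.6% to 99.3% of these counts in every library. In bulk tissue, fewer cells of a type and less RNA per cell cannot be told apart.

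Some fat body markers, and most markers of ovary follicle cells and gut enterocytes, fell with the yolk protein genes in yki3SA. The part of these cell types in the results above was not tested. Among 14 other fat body markers, 6 fell in yki3SA against control (apolpp, Apoltp, Mtp, fit, Tsf1 and Lsd-1) and 2 rose (Ilp6 and Gnmt), with a median log2 of -0.94. Their summed level was 535 to 1096 CPM in the control libraries, 128 to 194 CPM in the yki3SA libraries and 476 to 951 CPM in the ITP-i libraries, and none was at 0 in a whole group. The lipophorin gene apolpp, the main carrier of lipid in hemolymph, fell from 427.5 ± 231 to 30.9 ± 15.0 CPM (log2 -3.79, adjusted p = 8.9e-04). Tsf1, a secreted iron-binding transferrin, fell from 171 ± 17.6 to 28.7 ± 11.3 CPM (log2 -2.58, adjusted p = 3.1e-04), and Mtp, which loads lipid onto lipophorin, fell less (log2 -0.76, adjusted p = 0.0016). Gnmt (log2 2.32, adjusted p = 0.0026) and Ilp6 (log2 1.51, adjusted p = 0.0099) went the other way.

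In ITP-i against yki3SA, 4 of the 14 rose (apolpp, fit, Tsf1 and Sardh) and Ilp6 fell, with a median log2 of 0.62. Of the 6 that fell in yki3SA, Apoltp (log2 0.81, adjusted p = 0.24), Mtp (0.15, 0.40) and Lsd-1 (0.01, 0.98) were not called in that comparison. Against control, Gnmt and Sardh were higher in ITP-i, and Mtp and Lsd-1 lower. The fat body satiety gene fit gave log2 values close to those of the yolk protein genes (-3.89, adjusted p = 0.0072, and 3.97, adjusted p = 0.010). Yolk protein gene counts for each count of the 14 markers were 5.16, 4.13 and 4.63 in the control libraries, 1.19, 1.57 and 1.18 in the yki3SA libraries and 3.44, 3.88 and 3.79 in the ITP-i libraries, without overlap between any groups (exact permutation p = 0.10 for each pair, the smallest possible). Set against apolpp alone, the ratio was 9.06, 10.6 and 7.60 in the control libraries, 7.65, 6.31 and 6.39 in the yki3SA libraries and 8.02, 12.1 and 11.6 in the ITP-i libraries, so control and yki3SA overlapped.

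The follicle cells of the ovary, the other known source of yolk protein transcripts, are marked by chorion and vitelline membrane genes. Of 18 such markers, 17 fell in yki3SA against control (median log2 -5.24), 13 rose in ITP-i against yki3SA (median 4.45, and 7 with limma-voom), and with edgeR no marker was called in ITP-i against control (median -0.97), nor was any at an unadjusted p under 0.05 or with DESeq2 or limma-voom. Their summed level was 136 to 354.5 CPM in the control libraries, 1.91 to 11.2 CPM in the yki3SA libraries and 47.0 to 141 CPM in the ITP-i libraries. The chorion genes Cp38 (log2 -6.54, adjusted p = 0.0012) and Cp19 (log2 -6.38, adjusted p = 0.0025) and the vitelline membrane gene Vm26Aa (log2 -5.94, adjusted p = 0.0028) had the smallest p-values. Yolk protein gene counts for each follicle marker count ranged from 10.4 to 31.9 in the control libraries, 14.3 to 79.3 in the yki3SA libraries and 14.9 to 39.2 in the ITP-i libraries, and all groups overlapped. Of 8 germline markers none was called with edgeR, DESeq2 or limma-voom in any comparison, 1 had an unadjusted p under 0.05 (grk, in yki3SA against control), and their sums were 43.0 to 47.6, 31.1 to 91.2 and 40.2 to 81.3 CPM, highest in the yki3SA and ITP-i libraries numbered 3. Without those libraries all calls of the yolk protein genes and Obp99a in yki3SA against control and in ITP-i against yki3SA were also made.

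**Figure D4:**
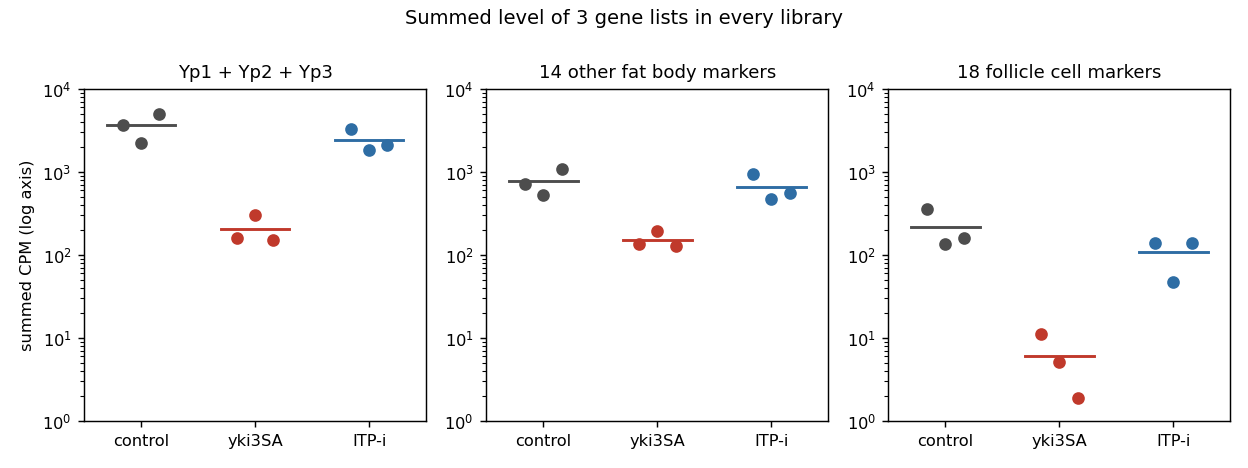
Summed CPM on a log axis of the yolk protein genes, of 14 other fat body markers and of 18 ovary follicle cell markers in each library, with lines at the group means. All 3 sums are lowest in the yki3SA libraries, at 151 to 304, 128 to 194 and 1.91 to 11.2 CPM.

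Gut enterocyte markers fell too, with 17 of 22 tested lower in yki3SA against control (median log2 -5.21, or -4.26 with genes that have no count in a group set at their bound), 11 higher in ITP-i against yki3SA (2.73, or 2.42 so treated) and 6 lower in ITP-i against control. In yki3SA against control the lysozyme gene LysE (log2 -7.15, adjusted p = 1.3e-04) and the amylase gene Amy-d (log2 -3.74, adjusted p = 2.4e-04) fell. Amy-d was higher in ITP-i than in yki3SA (log2 3.37, adjusted p = 9.2e-04). LysE was not called there (log2 0.71, adjusted p = 0.55) and stayed below control (log2 -6.44, adjusted p = 3.8e-04). Those lower in ITP-i than in control were LysB, LysC, LysD, LysE, LysS and Bace. LysS, deltaTry and Jon25Bi had no count in yki3SA, but deltaTry had only 3 counts in the control libraries and was not tested. Sums in the control, yki3SA and ITP-i libraries were 464 to 1335, 17.1 to 143 and 192 to 491 CPM. Of 10 tested hemocyte markers, 4 fell in yki3SA (Pxn, Col4a1, vkg and PPO1), crq rose, and Pxn and PPO1 rose in ITP-i against yki3SA. Their sums were 250 to 280, 255 to 291 and 269.5 to 313 CPM, and He had no count in control or ITP-i. Most of each sum was crq, with means of 175.5, 235.5 and 229.6 CPM in the control, yki3SA and ITP-i libraries. Col4a1 had means of 46.2, 15.6 and 24.7 CPM and vkg of 33.7, 9.3 and 14.6 CPM, so the sums do not show the fall of these genes. No muscle marker of 10 was called with edgeR in yki3SA against control (4 at an unadjusted p under 0.05, 1 with DESeq2, 0 with limma-voom) and 4 rose in ITP-i against yki3SA (Mhc, Mlc2, Act57B and wupA), with sums of 581 to 670, 489 to 672 and 707 to 897 CPM. The 11 markers of the male reproductive tract did not pass the filter, and summed to 0.124 to 1.23 CPM in the 9 libraries.

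Some markers of the tubule itself were also lower in yki3SA. Among 13 principal cell markers, 5 fell in yki3SA (CapaR, Irk3, Oatp58Db, Prestin and ZnT35C; median of the list -0.47), 4 rose in ITP-i against yki3SA, and against control Uro was higher and Irk3 lower in ITP-i. Of 8 stellate cell markers, Lkr and Drip fell in yki3SA, and with edgeR none was called in ITP-i against yki3SA (1 at an unadjusted p under 0.05, 1 with DESeq2, 0 with limma-voom) or against control (3, 2 and 0).

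Regulators of yolk protein transcription were measured as a list of 21 genes of sex determination, hormone response and tissue identity. In yki3SA against control, 3 of the 21 rose (tra2, ix and usp), beside 16.2% of all tested genes. Another 2 fell (fru and srp), beside 14% of all. The median log2 of the 21 was 0.09, and that of all tested genes 0.07. The GATA factor gene srp, which is known to act on yolk protein genes in the fat body, fell from 40.6 ± 9.18 to 15.0 ± 1.81 CPM (log2 -1.44, adjusted p = 4.3e-04). It was at 16.7 ± 1.83 CPM in ITP-i, still below control (log2 -1.28, adjusted p = 0.0017), and ITP-i against yki3SA did not pass (log2 0.16, adjusted p = 0.58). The receptor gene usp, the partner of the ecdysone receptor, rose from 46.2 ± 4.11 to 69.8 ± 7.16 CPM (log2 0.59, adjusted p = 0.0045).

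The doublesex gene dsx, whose sex-specific proteins bind the shared enhancer of Yp1 and Yp2, was at 35.6 ± 8.21, 29.5 ± 8.30 and 51.7 ± 6.98 CPM in the control, yki3SA and ITP-i libraries. It did not pass in yki3SA against control (log2 -0.27, adjusted p = 0.41) and was higher in ITP-i than in yki3SA (log2 0.81, adjusted p = 0.034). In that comparison fru was also higher and tra lower, and srp was the one of the 21 called in ITP-i against control. The male dosage compensation RNA roX1 was at 11.4 ± 0.415 CPM in the control libraries, with yki3SA at 41.0 ± 4.40 CPM and ITP-i at 4.49 ± 0.912 CPM (log2 1.85 for yki3SA against control, adjusted p = 5.3e-05, and -3.19 for ITP-i against yki3SA, adjusted p = 1.4e-05). It was also lower in ITP-i than in control (log2 -1.34, adjusted p = 7.4e-04), and msl-2 was not called with edgeR in any comparison. The other male dosage compensation RNA, roX2, did not pass the filter on low counts. It had 0, 0 and 0 counts in the control libraries, 6, 0 and 4 in the yki3SA libraries and 0, 0 and 4 in the ITP-i libraries.

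Uptake of yolk and lipoproteins was represented by 7 receptor genes and their helpers, and with edgeR none was called in yki3SA against control (1 at an unadjusted p under 0.05, arr, 1 with DESeq2 and 0 with limma-voom). The yolk protein receptor gene yl was at 40.6, 37.1 and 49.6 CPM in the control libraries, at 8.16, 2.71 and 44.5 CPM in the yki3SA libraries and at 38.4, 18.6 and 61.1 CPM in the ITP-i libraries. It did not pass in yki3SA against control (log2 -1.19, adjusted p = 0.29), with yki3SA library 3 inside the control range and the other two far below it. Cubn, the cubilin gene of nephrocytes, rose in ITP-i against yki3SA (log2 1.38, adjusted p = 7.7e-04) and against control (log2 1.41, adjusted p = 6.9e-04). A list of 9 genes of hexamerin relatives and proteins secreted into hemolymph, 8 of which stand in the fat body or hemocyte lists, had 6 lower in yki3SA, 4 higher in ITP-i against yki3SA and 1 lower in ITP-i against control.

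Likeness of profile was measured as Pearson's r of log2 CPM over the 9 libraries, among 5839 genes with a mean of at least 10 CPM. Such values mostly follow the difference between the 3 groups and share library scaling, and they are given as a description. Closest to the mean profile of the yolk protein genes were CG13086, nes and Slc45-1 (each r = 0.988), CG2233 (0.988), apolpp (0.986), CG2145 (0.985), Suv3 (0.984) and Atpalpha (0.983). CG2233 went from 199 ± 59.0 CPM in control to 38.9 ± 14.4 CPM in yki3SA, with ITP-i at 148 ± 47.6 CPM. The changes of nes and Suv3 had the same shape with a far smaller size (log2 -0.89 and -0.87 in yki3SA against control). Closest to Obp99b were Pdp1 (r = 0.944), Ugt36E1 (0.934), CG43679 (0.924) and CG8320 (0.916), and closest to Lsp2 were Fkbp12 (0.973), RpS23 (0.967), ND-B14 (0.963) and ND-B14.5B (0.963). Lsp2 had only 0 to 18 counts in a library, and Obp99b had 1 to 178. The Lsp2 profile, and that of Obp99b in ITP-i, therefore rest on few counts. Among the 9 genes themselves, r was 0.993 to 0.997 within the yolk protein genes, 0.976 to 0.984 between these and Obp99a, -0.73 to -0.68 between these and Lsp1gamma, and 0.012 to 0.055 between these and Obp99b.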

How the data were processed

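The deposited file holds raw counts per gene for 9 libraries, and the authors applied no normalization to these counts. It was checked that all values are whole numbers with different column totals. Tools named in the submitters' processing notes are HTSeq, TopHat, DESeq and Cufflinks. For their versions, the genome build, the annotation and the strand setting, nothing is given in the sources used here. Of 17611 identifiers, 17552 were matched to a symbol. Poly-A RNA was sequenced from TruSeq libraries, per the labels.

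All counts were fitted together in R 4.3.3 with edgeR 4.0.16 (filterByExpr, TMM scaling, quasi-likelihood F-test with robust = FALSE, prior count 0.125), and p-values were adjusted by Benjamini-Hochberg over the 10253 genes tested. Levels are CPM with TMM factors, as mean ± SD of 3 libraries. Each SE was computed as the absolute log2 fold change divided by the square root of the F value of the edgeR test. Intervals were built from these SEs and cover the fitted spread, and floors of 3 counts cover counting error only. Coding lengths and neighbours come from Ensembl release 115, whose coordinates are not printed, since the files name no build. Alternatives were DESeq2 1.42.0, limma-voom (limma 3.58.1), other scalings and filters, robust fits, 2-group fits, a replicate block and fits without each library. Of these, 2 exclusions of several libraries were chosen after the data were seen. The test was checked on simulated counts. Replicates of a group differed by far more than sampling noise (chi-square per gene from 47.7 to 140). Tables and plots were made in Python 3.11.15 (pandas 2.3.3, numpy 2.4.6, matplotlib 3.10.9).

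The 9 genes and all lists were chosen with earlier results of these data known. The rule for genes named with values took the 9 genes, ITP, up to 3 tested genes of each list with the smallest p in yki3SA against control, and the genes closest in profile. Others (fit, dsx, Cubn and the genes called in a list) were chosen after their values were seen.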

Additional observations from a re-analysis of the deposited data

How the results depend on the processing

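The calls of Yp1, Yp2, Yp3 and Obp99a in yki3SA against control and in ITP-i against yki3SA were made in all 21 alternative fits. The count of the 9 genes called lower in yki3SA against control, 5, ranged from 5 to 6 without single libraries, and that called higher in ITP-i against yki3SA, 5, from 4 to 6. The 2 calls in ITP-i against control became 1 with total-count scaling, limma-voom, robust = TRUE or at least 5 CPM in 3 libraries (where 5 of the 9 genes were tested), and also 1 in both exclusions chosen after the data were seen, and ranged from 0 to 2 without single libraries. Which of Obp99a and Obp99b was lost differed, and the cause was not tested. Directions reversed for uncalled values: Lsp1alpha in yki3SA against control without yki3SA library 1 (log2 -0.71, with up to 2.03 without the other libraries in turn), Lsp2 in ITP-i against control without control library 1 (0.19, and down to -0.47 without others), and, without control libraries 2 and 3 and yki3SA library 3, Obp99b in yki3SA against control (0.086) and Lsp1beta in ITP-i against control (0.43). That exclusion leaves control with 1 library, assumed to vary like the others, and ended the calls in yki3SA against control of Lsp1beta (log2 -2.98, adjusted p = 0.13) and Lsp1gamma (4.13, 0.053). Lsp1beta in ITP-i against yki3SA was called in 15 of 21 fits, with an adjusted p up to 0.079. Deviations of same-numbered libraries correlated at -0.0815 to 0.175, and those of differently numbered libraries at -0.259 to 0.143. The ranges overlapped, and the highest values (0.175, 0.166 and 0.155) were of same-numbered libraries. These values are small and do not decide whether replicate numbers pair the libraries. With a replicate block the 3 counts were 5, 5 and 2, and 1 call ended, Obp99b in ITP-i against yki3SA (log2 -3.32, adjusted p = 0.052). Total-count scaling moved the median log2 of all genes by 0.29 in yki3SA against control and by -0.2 in ITP-i against yki3SA, less than any called change of the 9 genes there. The ratio of yolk protein to other fat body counts ranged from 4.38 to 4.90 in the control libraries, 1.18 to 1.38 in the yki3SA libraries and 3.61 to 3.84 in the ITP-i libraries without single libraries. Depth limits Lsp1alpha, Lsp2 and, in ITP-i, Obp99b, each with under 20 counts in most libraries.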

Other observations

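Of the other 49 odorant-binding protein genes, 21 passed the filter. Obp57c and Obp99c fell in yki3SA against control, Obp99c and Obp19c rose in ITP-i against yki3SA, and Obp99c and Obp28a were lower in ITP-i than in control, with a median log2 over the 21 of -2.08, 0.49 and -0.76. Each time these were 2 of the 21, beside 14%, 10.6% and 4.14% of all tested genes called in that direction. DESeq2 called 6 of the 21 lower in ITP-i than in control, and limma-voom called 1. Obp99c went from 52.0 ± 14.4 CPM in control to 9.87 ± 1.99 CPM in yki3SA (log2 -2.40, adjusted p = 1.5e-04) and 24.5 ± 6.49 CPM in ITP-i (log2 1.31 against yki3SA, adjusted p = 0.0068, and -1.09 against control, adjusted p = 0.021). The group means of Obp99c stood in the order seen for Obp99a, with smaller differences.

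Some odorant-binding protein genes, chosen here after their values were seen, were high in single libraries and not by group. Obp19d was at 1.07, 96.7 and 85.5 CPM in the control libraries, 0.818, 0.134 and 19.6 CPM in the yki3SA libraries and 0.988, 1.40 and 2.90 CPM in the ITP-i libraries. Obp83a was at 0, 21.6 and 23.6 CPM in the control libraries, 0.245, 0.0224 and 3.85 CPM in the yki3SA libraries and under 0.2 CPM in the ITP-i libraries. Obp28a was at 0, 8.02 and 7.26 CPM in the control libraries, 0.136, 0.179 and 2.68 CPM in the yki3SA libraries and under 0.03 CPM in the ITP-i libraries, so its call against control rests on control libraries 2 and 3, and control library 1 overlapped ITP-i. These 3 genes were therefore high in control libraries 2 and 3 and, less so, in yki3SA library 3.

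In yki3SA library 1, where Lsp1alpha had its highest count (53), the hexamerin receptor gene Fbp1 had 111 counts and 0 to 24 in the other libraries, and the flight muscle actin gene Act88F had 645 counts and 18 to 126 in the others. Both were chosen after their values were seen, and no difference between groups passed the test for either gene.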
